A study of Drosophila melanogaster with 12 samples.

Results

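Gene counts of Drosophila melanogaster testes mutant for Tdrd5l were compared with those of control testes across all genes, with weight on the set of genes that changed, their chromosomes and how well the libraries agreed. The members were the 6 testis libraries among the 12 libraries of the study, picked by tissue and genotype in the labels, 3 from males labelled Tdrd5l mutant and 3 from males of the line labelled cas9 iso. Males of both groups were 1 to 2 days old and had been raised at 25 °C, and their RNA was depleted of ribosomal RNA before 200 ng went into each library. The labels call the libraries biological replicates, name a single line for each genotype and do not describe the lesion, so the effect of Tdrd5l and that of any other difference between these lines cannot be told apart. The testis is a mixture of cells, and in such counts fewer cells of a type and less RNA per cell cannot be told apart.

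Tdrd5l encodes a protein with a Tudor domain, a fold that binds methylated arginine and is found in many proteins of germline granules and of the piRNA pathway, which silences transposons and repeats. In the fly testis, germline stem cells give rise to spermatogonia, which become spermatocytes, pass meiosis and form spermatids with long flagella, while somatic cyst cells enclose them. The piRNA pathway of the testis is best known for the Su(Ste) repeats of the Y chromosome, whose antisense RNAs silence the Stellate repeats of the X chromosome.

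The 6 libraries held 1390699 to 2880119 gene counts, which made up 3.33% to 5.02% of their uniquely aligned records, so most aligned records fell outside the counted genes. Neither the kit nor any stated counting setting marks strand. Values of the 4463 annotated features, of 17252, that have exon bases across from another gene's exon (an opposite exon) are therefore uncertain. For the other features, too, it is not known that the counts come from the gene's own strand. Genes without such bases held 40.0%, 43.9% and 27.4% of gene counts in mutant libraries 1, 2 and 3 and 30.1%, 34.3% and 37.7% in the control libraries, so mutant library 3 was the lowest and mutant libraries 1 and 2 the highest (this share is called the strand share below). Markers of the testis germ line were present in every library, with 17 of 18 tested, none called with edgeR, DESeq2 or limma-voom and 0 at an unadjusted p under 0.05, and with summed levels of 1469 to 1817 CPM in mutant and 1717 to 1870 CPM in control testes. CPM are counts per 1000000 after TMM scaling, and every level below is on that scale. The 83 cytoplasmic ribosomal protein genes summed to 5720 to 6469 CPM in mutant and 5136 to 5767 CPM in control testes. The 237 chemoreceptor and odorant binding genes summed to 4837 to 10150 and 7135 to 9208 CPM. The strand from which such counts came was not tested, and this limit holds for every level below. Tdrd5l itself, listed as CG15930, stood at 321, 243 and 479 CPM in the mutant libraries and 419.5, 321 and 296 CPM in the control libraries, overlapping groups that do not check the genotype because the lesion may leave the counted exons in place.

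Of 9768 genes tested, 92 were called (0.942%) at an adjusted p under 0.05 with the quasi-likelihood test of edgeR, with 31 higher (0.317%) and 61 lower (0.624%) in mutant testes. DESeq2 called 102 (1.04%) and limma-voom 92 (0.942%). Every called gene changed by at least 2.49-fold, with a median log2 change of 3.12 in size among the rises and 2.14 among the falls. Most were of modest abundance: the higher of the group means lay below 50 CPM for 21 of the 31 rises and 33 of the 61 falls. For all 92 genes the mutant and control libraries did not overlap, which held for 1152 of the tested genes (11.8%), 554 with higher (5.67%) and 598 with lower (6.12%) mutant values. At an unadjusted p under 0.05 stood 712 genes (7.29%). Genes without an opposite exon supplied 67 of the calls (1.12% of 5967 tested) and genes with one supplied 24 (0.663% of 3622). In those 24, opposite bases made up 50% or more of exon length in 9 genes, 20% to 50% in 5 and less in 10. Fitting the features without an opposite exon on their own called 28 of 6022 genes (0.465%), 8 higher (0.133%) and 20 lower (0.332%). Library size in place of TMM called 58 (0.594%), the strand share added to the model 177 (1.81%), and a model of all 12 libraries 9 (0.0872%).

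**Figure D1:**
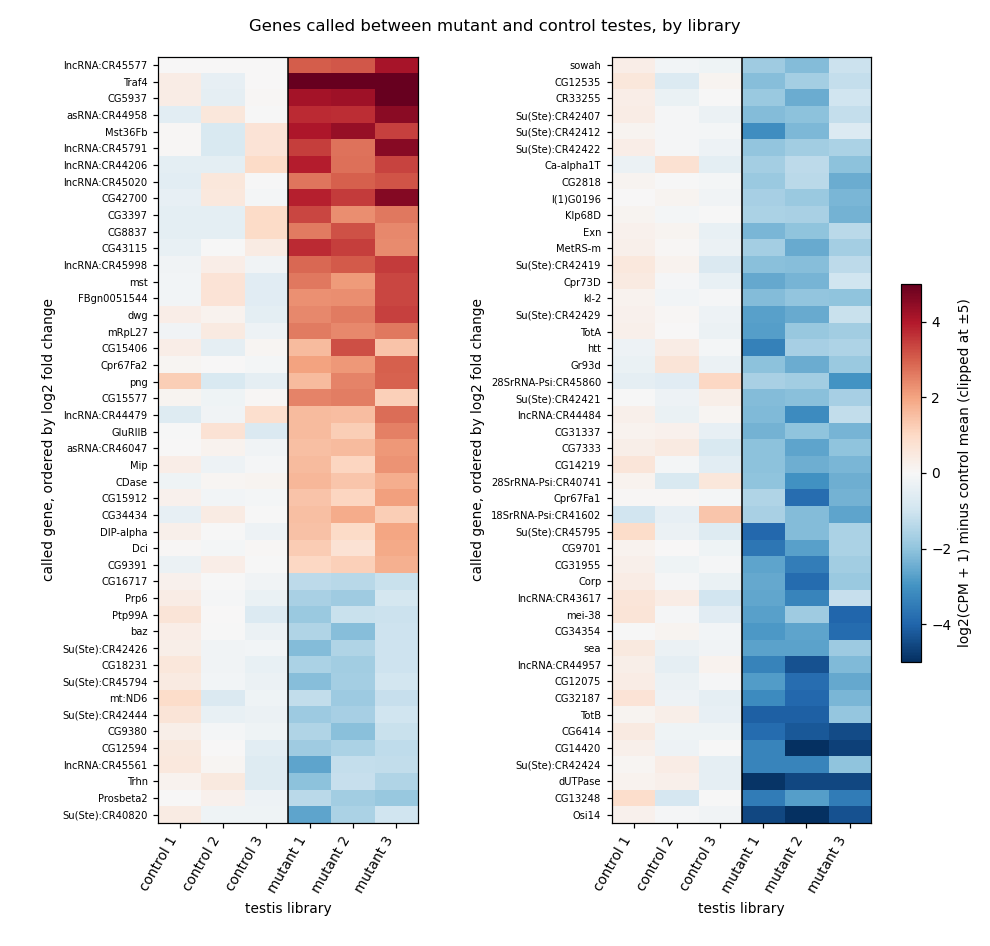
Each cell gives the log2 level (CPM plus 1) of a called gene in a library, less the mean of the 3 control libraries, with colours clipped at 5 in either direction. All 31 genes called higher lie above the control mean in each mutant library and all 61 called lower lie below it. The genes were called from these same libraries, so this is no separate evidence that the libraries agree. Mutant library 3 has the smallest median difference among the falls (-1.70, against -2.16 and -2.14 in mutant libraries 1 and 2). Among the rises mutant library 3 has the largest (2.776, against 2.496 and 2.474).

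The called genes were next read across libraries. Each library was left out in turn, the other 5 were fitted, and the left-out library was read for the side on which it fell. Without mutant library 1, 66 genes were called (0.668%), and 98.5% of them lay on the called side in library 1 itself, against 69.8% of all genes tested. The 49 genes called without mutant library 2 (0.499%) all did so (100% against 64.4%). The 52, 72 and 111 genes called without control libraries 1, 2 and 3 (0.493%, 0.686% and 1.13%) did so in 98.1%, 98.6% and 97.3%, against 66.5%, 69.8% and 64.9% of all genes. 

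Mutant library 3 stood apart. Without it, 725 of 10619 genes were called (6.83%), 287 higher (2.70%) and 438 lower (4.12%). Of these 725, 447 (61.7%, against 46.9% of all genes) lay on the same side of the control mean in library 3, 154 of the 287 higher and 293 of the 438 lower genes, and 294 (40.6%, against 26.7% of all genes) lay beyond all 3 control libraries. That fit shared 89 of the 92 calls made with all 6 libraries. Library 3 correlated with the other mutant libraries at r = 0.869 and 0.883 across 9768 genes, values below those of the control pairs (0.913 to 0.944) and of the other mutant pair (0.948), and within the range of mutant with control libraries (0.851 to 0.928). These correlations are across genes, which are not independent replicates. The first principal component, with 41.5% of the variance, placed mutant libraries 1 and 2 at 40.8 and 44.3, control libraries 1, 2 and 3 at -48.0, -11.8 and 4.66 and mutant library 3 at -30.0, so it did not separate the genotypes. The strand share followed this order except at its low end, where mutant library 3 lay below control library 1. Genes without an opposite exon had median log2 differences from the control mean of 0.17 and 0.25 in mutant libraries 1 and 2 and -0.08 in library 3, and genes with one had -0.14, -0.28 and 0.18. The part of the strand share in the 725 calls was not tested apart from genotype. Of the 92 genes, 36 were called in every fit that left out a library.

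**Figure D2:**
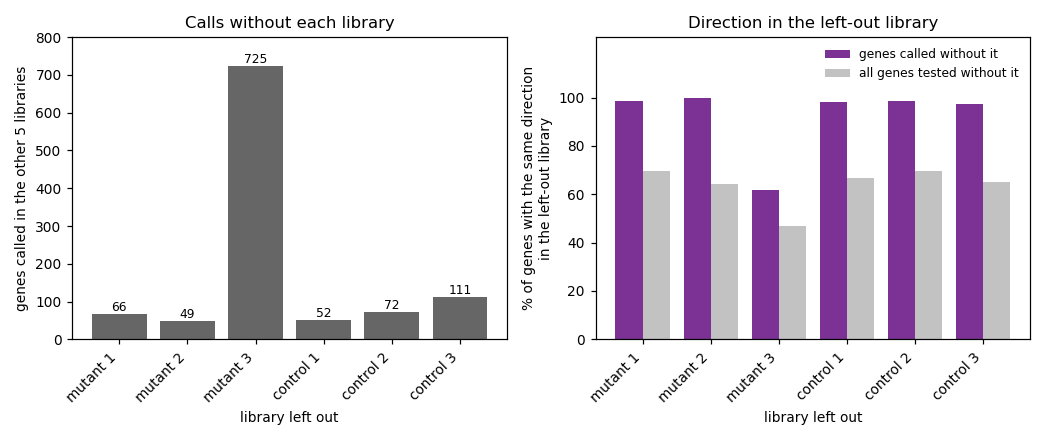
The left panel counts genes called in the 5 libraries that remain after leaving out each one, and the right panel gives the percent of those genes, and of all genes tested, that lie on the called side in the left-out library. The fit without mutant library 3 called 725 genes, of which 61.7% kept their side there, while the other fits called 49 to 111 genes with 97.3% to 100%.

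On the Y chromosome 13 of 36 tested genes fell (36.1%, against 48 falls or 0.493% among the 9732 genes elsewhere) and 0 rose, with a median log2 change of -1.25. The falls were 12 of the 22 tested Su(Ste) copies and kl-2 among the other 14 Y-linked genes. Su(Ste):CR42426 (FBgn0259857, Y 934058 to 935745) stood at 83.5, 136 and 187 CPM in mutant and 467, 343 and 349 CPM in control libraries (log2 -1.52, SE 0.35, edgeR adjusted p = 0.0153). Its groups did not overlap, and across the family all 22 copies had negative log2 changes (median -1.59, range -4.67 to -0.52) and 21 had groups without overlap. Summed over 27 Su(Ste) features, the family held 0.0919%, 0.137% and 0.188% of gene counts in mutant libraries 1, 2 and 3 and 0.426%, 0.336% and 0.319% in control libraries. The 13 Stellate features had no counts in any of the 6 libraries. Su(Ste) and Stellate copies are near-identical, records that align to several places were not assigned to genes, and they were 14.8%, 16.6% and 15.8% of the total in mutant and 20.4%, 18.8% and 19.7% in control libraries, again without overlap. The part of that share in the Su(Ste) counts was not tested, and calls of single copies are uncertain. The count of 13 Y-linked calls also changed when single libraries were left out, with 1 without mutant library 2, 3 without control library 1, 5 without mutant library 1 and 21 without mutant library 3, and scaling by library size gave 7 and the model of all 12 libraries 0. Of all genes tested, those fits called 0.499%, 0.493%, 0.668%, 6.83%, 0.594% and 0.0872%.

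The Y-linked gene kl-2 (Y 573088 to 664173), whose product is a dynein motor of the sperm flagellum, had 28.4, 32.2 and 31.7 CPM in mutant and 147, 118 and 126 CPM in control libraries. The groups were far apart and the spread within each was small (log2 -2.08, SE 0.34, edgeR adjusted p = 1.92e-04), and the call held without each library. Of 13 tested axonemal dynein genes kl-2 was the 1 called and the 1 with an unadjusted p under 0.05, 7 had positive and 6 negative changes, and the median log2 change was 0.06, or -0.16 with the strand share in the model. The Y-linked dynein gene kl-3 stood at 15.7, 28.6 and 5.64 CPM in mutant and 24.8, 14.6 and 30.3 CPM in control libraries, overlapping groups (log2 -0.44, SE 0.45, edgeR adjusted p = 0.905). Among 9 tested Y-linked fertility genes the changes were positive in 3 and negative in 6 (median -0.26, and -0.97 with the strand share in the model).

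The X chromosome held 24 called genes, 10 higher and 14 lower (1.70% of 1414 tested). Around Tdrd5l (X 5315130 to 5317295) their share was higher. Within 2.5 Mb of it 12 of 264 genes were called (4.55%, 7 higher and 5 lower), against 12 of 1150 farther along the X (1.04%) and 68 of 8354 off the X (0.814%). From 2.5 to 5 Mb away 5 of 364 genes were called (1.37%), and from 5 to 10 Mb 0 of 314, where 13 had an unadjusted p under 0.05 and DESeq2 and limma-voom called 1 and 0. From 10 to 20 Mb away 7 of 472 were called (1.48%). The 12 near calls numbered 9 to 11 without one of the libraries other than mutant library 3 and 24 without that one, 4 among features without an opposite exon fitted alone and 4 in the model of all 12 libraries. Of all genes tested, those fits called 0.493% to 1.13%, 6.83%, 0.465% and 0.0872%. Near calls with an opposite exon, such as CG6414, could not enter the fit of features without one. The difference between the near and far shares was not tested. The near group included CG15577 (X 4276493 to 4277000), with 51.3, 54.2 and 20.4 CPM in mutant and 9.29, 7.02 and 8.66 CPM in control libraries. It rose without overlap of the groups (log2 2.35, SE 0.43, edgeR adjusted p = 0.00124).

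**Figure D3:**
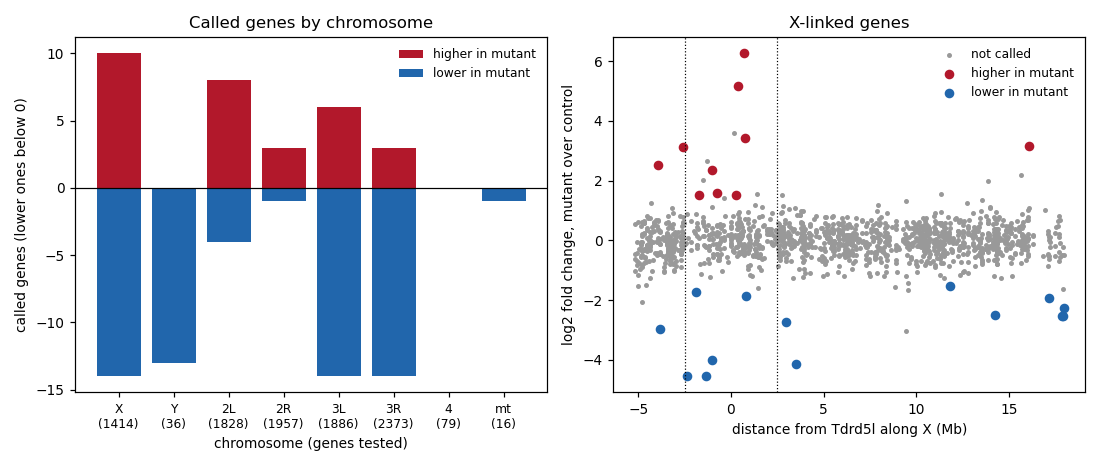
The left panel counts genes called higher (upward) and lower (downward) per chromosome, with genes tested in brackets, and the right panel plots the log2 fold change of each X-linked gene against its distance from Tdrd5l, with called genes coloured. The Y has 13 falls and 0 rises, and 12 of the 24 X-linked calls lie within 2.5 Mb of Tdrd5l.

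Shares of all gene counts were then compared per chromosome, where 3 against 3 libraries allow no exact two-sided permutation p below 0.1. The X held 8.73%, 9.16% and 8.79% of gene counts in mutant and 10.7%, 10.3% and 10.9% in control libraries (means 8.89% ± 0.230 and 10.6% ± 0.294, SD over n = 3 libraries each, with an exact two-sided permutation p of 0.1, or 0.133 adjusted over 8 chromosomes). The groups did not overlap, but most of the gap sat in few features. With the polarity gene baz and the ribosomal RNA features left out, a choice made after seeing the data, the X held 8.14%, 8.77% and 8.25% in mutant and 8.58%, 8.83% and 8.61% in control libraries, which overlapped (exact two-sided permutation p = 0.3). The mitochondrial genome held 0.274%, 0.253% and 0.238% in mutant and 0.661%, 0.421% and 0.510% in control libraries, again without overlap (exact two-sided permutation p = 0.1). Without the Su(Ste) copies the Y held 0.0195%, 0.0262% and 0.0136% in mutant and 0.0319%, 0.0295% and 0.0321% in control libraries. Arms 2L, 2R and 3L held larger shares in mutant testes, by 0.841, 0.693 and 0.170 percentage points without overlap, and the shares of 3R and the fourth chromosome overlapped between the genotypes. The fourth chromosome had 0 calls among 79 genes with edgeR, DESeq2 and limma-voom, and 10 genes with an unadjusted p under 0.05, all of them lower.

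**Figure D4:**
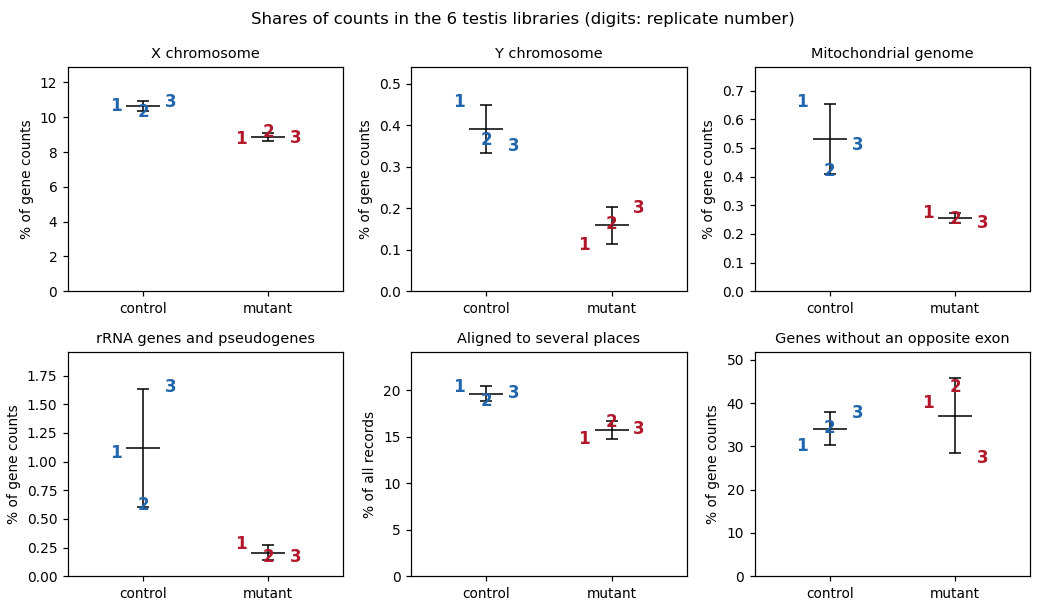
Each panel plots a share of gene counts or of all records (percent) in the control and mutant libraries, with digits at each library's value giving its replicate number, and bars giving mean and SD (n = 3). The X, Y, mitochondrial, ribosomal RNA and multiply aligned shares do not overlap between the genotypes, while the share of genes without an opposite exon does.

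Ribosomal RNA features, which depletion had been meant to remove, held 0.279%, 0.171% and 0.164% of gene counts in mutant and 1.08%, 0.624% and 1.65% in control libraries. The pseudogene 28SrRNA-Psi:CR40741 (X 23239718 to 23240975) alone stood at 2444, 1202 and 1823 CPM in mutant and 11230, 5803 and 14540 CPM in control libraries (log2 -2.53, SE 0.40, edgeR adjusted p = 1.42e-04). All 7 tested ribosomal RNA genes and pseudogenes had negative changes and 3 were called lower, against 61 of all 9768 tested genes (0.624%). The calls of 18SrRNA-Psi:CR41602 and 28SrRNA-Psi:CR45860 ended without control library 3 (edgeR adjusted p = 0.267 and 0.209). That of 18SrRNA-Psi:CR41602 also ended without mutant libraries 2 or 3. The efficiency of depletion and rRNA level cannot be told apart in these values, and the call of 28SrRNA-Psi:CR40741 ended when the strand share entered the model (adjusted p = 0.259 with edgeR), while its log2 change stayed at -2.53.

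Single called genes with a known function are described next. They are ordered by what each encodes, without a list or test behind the order. The gene dwg (FBgn0000520, X 2727698 to 2730042), also known as zeste-white 5, encodes a zinc finger protein that binds insulator DNA, and it had 25.995, 29.9 and 53.6 CPM in mutant and 5.42, 4.68 and 2.60 CPM in control libraries. It rose in all 3 mutant libraries (log2 3.12, SE 0.48, edgeR adjusted p = 1.08e-04). The gene mRpL27 (FBgn0053002, 2L 4458595 to 4459638), a subunit of the mitochondrial ribosome, had 21.9, 19.1 and 22.6 CPM in mutant and 2.32, 4.09 and 2.17 CPM in control libraries, also without overlap (log2 2.86, SE 0.54, edgeR adjusted p = 0.00175). The mitochondrial methionyl-tRNA synthetase gene MetRS-m (FBgn0027083, 3R 14249043 to 14259991) went the other way, with 65.0, 35.8 and 64.1 CPM in mutant and 252, 218 and 171 CPM in control libraries (log2 -1.96, SE 0.34, edgeR adjusted p = 6.88e-04). These 3 calls held without each library.

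The gene mst (FBgn0020272, X 21388977 to 21391533), named misato and encoding a tubulin-related protein needed for the mitotic spindle, had 16.4, 11.2 and 26.8 CPM in mutant and 1.55, 3.51 and 0.866 CPM in control libraries. It rose (log2 3.17, SE 0.64, edgeR adjusted p = 0.00398), held without each library and was lost with limma-voom (adjusted p = 0.107). The gene mei-38 (FBgn0260986, X 1477063 to 1481420), which encodes a microtubule-associated protein of the spindle, had 1.37, 3.61 and 0 CPM in mutant and 23.2, 14.0 and 9.53 CPM in control libraries. It fell (log2 -2.98, SE 0.69, edgeR adjusted p = 0.0156), and the call ended without control library 1 (edgeR adjusted p = 0.279). Klp68D (FBgn0004381, 3L 11795614 to 11798875), a kinesin-2 motor subunit, had 6.84, 6.57 and 3.52 CPM in mutant and 24.8, 21.1 and 22.1 CPM in control libraries (log2 -1.94, SE 0.47, edgeR adjusted p = 0.0266). Its groups were apart, yet the call ended without any library other than mutant library 3 (edgeR adjusted p up to 0.132). The genes mei-38, Klp68D, CDase, Dci, sea, Mip, GluRIIB, DIP-alpha, Trhn, Ptp99A, Ca-alpha1T, htt, Prp6, lncRNA:CR45998 and asRNA:CR46047, and the uncalled genes kl-3, aPKC, ProtB, Prosbeta2R2 and mt:CoI, lie outside the naming rule and were picked after their values were seen.

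The gene l(1)G0196 (FBgn0027279, X 22487180 to 22508129), which encodes an inositol polyphosphate kinase, had 60.5, 53.5 and 39.5 CPM in mutant and 199.7, 218 and 173 CPM in control libraries. It fell in every mutant library and without each library (log2 -1.93, SE 0.33, edgeR adjusted p = 5.30e-04). CDase (FBgn0039774, 3R 30459521 to 30465736), the neutral ceramidase of sphingolipid breakdown, rose from 10.8, 13.5 and 13.9 CPM in control to 41.7, 34.8 and 47.2 CPM in mutant libraries (log2 1.68, SE 0.38, edgeR adjusted p = 0.0153). That call ended without control libraries 1 or 2 or mutant library 1 (edgeR adjusted p up to 0.129). Dci, an isomerase of fatty acid oxidation, rose (log2 1.40, SE 0.36, edgeR adjusted p = 0.0498) and sea, the mitochondrial citrate carrier, fell (log2 -3.61, SE 0.93, edgeR adjusted p = 0.0478). Both calls were at the edge of the threshold and ended without several libraries, Dci without any control library or mutant library 1 (up to 0.299) and sea without any library other than mutant library 3 (up to 0.537).

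Gr93d (FBgn0045468, 3R 21845454 to 21846659), a gustatory receptor gene, had 39.7, 28.9 and 45.1 CPM in mutant and 132, 256 and 133 CPM in control libraries and fell without overlap (log2 -2.21, SE 0.36, edgeR adjusted p = 1.92e-04). Most of its exon bases lie opposite asRNA:CR44087, which stood at 3.76 to 11.3 CPM in mutant and 3.03 to 7.74 CPM in control libraries and did not pass (log2 0.37, edgeR adjusted p = 0.957), so the strand of the Gr93d counts is uncertain. Exn (FBgn0261547, 3L 16970013 to 16994388), the fly Ephexin, which acts downstream of Eph receptors, had 10.9, 13.5 and 21.8 CPM in mutant and 68.1, 63.8 and 44.6 CPM in control libraries. It fell without overlap (log2 -1.96, SE 0.38, edgeR adjusted p = 0.00260) and kept its call without each library. Among the called genes picked by hand, the rises were Mip, a precursor of myoinhibiting peptides (log2 1.76, edgeR adjusted p = 0.0162), GluRIIB, a glutamate receptor subunit of the neuromuscular junction (log2 1.86, 0.0363), and DIP-alpha, a neuronal cell surface protein of the immunoglobulin family (log2 1.53, 0.0153). The falls were Trhn, the neuronal tryptophan hydroxylase of serotonin synthesis (log2 -1.67, 0.0379), Ptp99A, a receptor tyrosine phosphatase (-1.42, 0.0416), Ca-alpha1T, a T-type calcium channel subunit (-1.87, 0.0492), and htt, the huntingtin homologue (-2.21, 0.0084). Each of these 7 lost its call without at least 2 single libraries. Mip lost it without control libraries 2 or 3 (up to 0.149), GluRIIB without control libraries 1 or 3 (up to 0.181), and DIP-alpha without any control library (up to 0.149). Trhn, Ptp99A and Ca-alpha1T lost it without control libraries 1 or 2 or mutant libraries 1 or 2 (up to 0.330, 0.687 and 0.695), and htt without control library 2 or mutant library 1 (up to 0.0987).

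Several of those genes are known from neurons, so markers of neurons and glia were read beside them. Of 15 listed markers 13 matched and 9 were tested, and 0 were called with edgeR, DESeq2 or limma-voom, with 2 lower at an unadjusted p under 0.05. Their changes were positive in 2 and negative in 7 (median log2 -0.68, against 0.03 over all tested genes), and their summed level ran from 78.0 to 125.4 CPM in mutant and from 146 to 171 CPM in control testes, without overlap. The pan-neuronal gene elav stood at 17.1, 17.1 and 38.1 CPM in mutant and 39.5, 59.1 and 33.3 CPM in control libraries, which overlapped (log2 -0.90, SE 0.39, edgeR adjusted p = 0.541; 0.0106 without mutant library 3). Of the genes above, Mip, GluRIIB and DIP-alpha rose while these markers leaned downward. The part of these markers in those rises, or in the falls of Exn, Trhn and Ptp99A, was not tested.

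The most abundant called protein-coding gene, by the higher of the group means, was baz (FBgn0000163, X 17160006 to 17200728), the Par-3 scaffold of cell polarity, with 3563, 2318 and 5021 CPM in mutant and 12899, 9996 and 8227 CPM in control libraries. It fell (log2 -1.51, SE 0.37, edgeR adjusted p = 0.0313), but its call ended without control libraries 1 or 2 or mutant libraries 1 or 2 (0.366, 0.169, 0.210 and 0.121). Its partner kinase aPKC had 20.5, 27.6 and 35.2 CPM in mutant and 71.2, 52.1 and 48.1 CPM in control libraries, groups apart that did not pass (log2 -1.05, SE 0.36, edgeR adjusted p = 0.257; 0.0106 without mutant library 3). The other 14 tested polarity genes had no call, and the 15 as a list were split 8 positive to 7 negative with a median log2 of 0.04, or -0.18 with the strand share in the model. Prp6, a spliceosome subunit, fell from 1628, 1183 and 1000 CPM in control to 407, 365 and 683 CPM in mutant libraries (log2 -1.39, SE 0.35, edgeR adjusted p = 0.0389). That call ended without control libraries 1 or 2 or mutant libraries 1 or 2 (up to 0.446).

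Genes were then read by lists. The 52 lists had 848 distinct tested members, of which 27 were called (3.18%, against 0.942% of all tested genes), with 12 of these 27 being Su(Ste) copies, while 65 called genes were in no list and 38 lists had no called member. Lists and members were chosen with earlier results of these data known, so the higher share of calls in them is no test. The 596 tested members of those 38 lists included 41 with an unadjusted p under 0.05, and DESeq2 and limma-voom called 0 and 1 of them. Post-meiotic groups leaned upward. Sperm tail and sperm chromatin genes had positive changes in 22 of 24 members (median log2 0.47, against 0.03 over all tested genes), with Mst36Fb, of the male-specific transcripts, the 1 called. The protamine gene ProtB, which packs sperm chromatin, had 235, 256 and 68.4 CPM in mutant and 96.7, 84.2 and 152 CPM in control libraries (log2 0.75, SE 0.38, edgeR adjusted p = 0.705). Mutant library 3 was the lowest of all 6 there and the other mutant libraries the highest. Without mutant library 3 ProtB passed (edgeR adjusted p = 0.00326) with 8 more members of the list, in a fit in which 6.83% of all genes were called, and 4 members were called when the strand share entered the model, where the median of the list was 0.24. The 7 sperm leucyl aminopeptidase genes, abundant sperm proteins, all had positive changes (median 0.27, and 0.16 with the strand share in the model) and 0 were called with edgeR, DESeq2 or limma-voom, with 0 at an unadjusted p under 0.05.

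Proteasome and respiratory genes leaned the same way. Of 23 proteasome core genes and testis paralogs 21 had positive changes (median log2 0.48), while the 1 called member, Prosbeta2, went down. Groups did not overlap for 4 of the 21, against 554 of all 9768 tested genes apart with higher mutant values (5.67%). Prosbeta2 (FBgn0023174, 3L 14999951 to 15001319), the trypsin-like beta subunit of the core, had 15.0, 11.2 and 9.87 CPM in mutant and 40.2, 46.2 and 33.3 CPM in control libraries (log2 -1.71, SE 0.39, edgeR adjusted p = 0.0143). Its call ended without control libraries 1 or 2 or mutant library 2 (0.0614, 0.114 and 0.117). Its testis paralog Prosbeta2R2 had 78.3, 99.9 and 98.0 CPM in mutant and 46.4, 54.4 and 71.5 CPM in control libraries, apart but not called (log2 0.67, SE 0.33, edgeR adjusted p = 0.675). Cytochrome c oxidase subunits were positive in 14 of 17 (median 0.41), ATP synthase subunits in 12 of 15 (0.17) and complex I subunits in 24 of 38 (0.14), and of these 70 genes 0 were called with edgeR, DESeq2 or limma-voom, with 7 at an unadjusted p under 0.05, all higher. The 3 medians were 0.28, 0.10 and 0.09 with the strand share in the model. Changes were positive in 3492 of all 5967 tested genes without an opposite exon (median 0.10) and in 1555 of 3622 with one (-0.06). The complex I and ATP synthase medians were not far above the former. Over all 9768 tested genes 5136 changes were positive. An unadjusted p under 0.05 was found for 712 of them (7.29%), 310 higher and 402 lower. COX7AL, a testis paralog of an oxidase subunit, had 195, 155 and 116 CPM in mutant and 55.7, 79.6 and 93.1 CPM in control libraries (log2 1.02, SE 0.33, edgeR adjusted p = 0.217; 0.00214 without mutant library 3). The mitochondrial genome went the other way, with negative changes in 11 of 13 listed genes (median -0.24) and mt:ND6, a complex I subunit, called lower (log2 -1.59, edgeR adjusted p = 0.0475). That call ended without control library 1 (0.932) or mutant libraries 1 or 2 (0.0505 and 0.367). The oxidase subunit gene mt:CoI had 1583, 1164 and 1702 CPM in mutant and 4241, 3302 and 3325 CPM in control libraries, far apart but short of the threshold (log2 -1.29, SE 0.35, edgeR adjusted p = 0.0658).

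Oxidative stress genes were positive in 17 of 18 (median log2 0.39, and 0.21 with the strand share in the model), with 1 at an unadjusted p under 0.05 and 0 called with edgeR, DESeq2 or limma-voom. Sod1, the cytosolic superoxide dismutase, had 102, 102 and 76.8 CPM in mutant and 55.7, 80.1 and 45.04 CPM in control libraries, which overlapped (log2 0.64, SE 0.33, edgeR adjusted p = 0.712). Downward leaning lists were antimicrobial peptide and Toll or Imd genes (11 of 13 negative, median -0.31), cytochrome P450 genes (32 of 50, -0.25), chemoreceptor and odorant binding genes (44 of 63, -0.17) and sex determination genes (9 of 11, -0.16). Of these only the chemoreceptor list had an edgeR call, Gr93d, and unadjusted p values under 0.05 were found for 1, 7, 8 and 1 members. DESeq2 called 0, 0, 1 and 0 of the members and limma-voom 0, 1, 1 and 0. AttB, an antibacterial peptide gene, had 12.3, 9.85 and 22.6 CPM in mutant and 37.9, 36.9 and 33.3 CPM in control libraries (log2 -1.31, SE 0.40, edgeR adjusted p = 0.151), and passed without mutant library 3 (0.00289). Tudor domain genes were split 6 to 7 (median -0.02, or 0.04 with the strand share in the model, 1 of 13 at an unadjusted p under 0.05) and piRNA pathway genes 11 to 16 (median -0.08, 2 of 27), with 0 calls by edgeR, DESeq2 or limma-voom in either list. Among the Tudor genes qin, a piRNA factor with a RING domain, had 12.7, 15.4 and 14.1 CPM in mutant and 27.9, 23.4 and 35.1 CPM in control libraries, groups apart that did not pass (log2 -1.04, SE 0.39, edgeR adjusted p = 0.405).

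**Figure D5:**
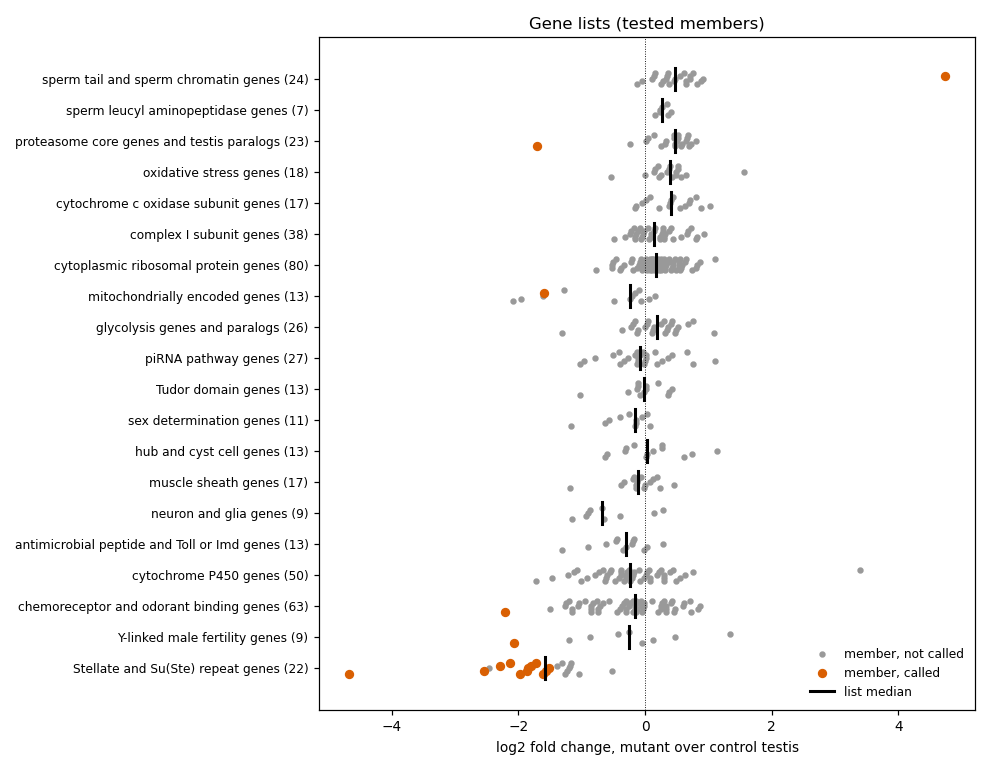
Each point is the log2 fold change of a tested list member in the fit of all 6 libraries, with called genes coloured and a bar at the list's median. Sperm, proteasome, oxidase and oxidative stress lists sit mostly above 0, mitochondrially encoded, neuronal and immune lists mostly below, and all 22 Su(Ste) copies lie below 0.

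Markers of other tissues were read for a change in what was dissected. Hub and cyst cell genes were split 8 to 5 (median log2 0.04) with summed levels of 609 to 811 CPM in mutant and 657 to 790 CPM in control testes, and muscle sheath genes 5 to 12 (median -0.12) with 697 to 903.5 and 799.9 to 911 CPM. All 8 tested accessory gland and ejaculatory tract genes had positive changes (median 0.44, and 0.13 with the strand share in the model), and the 22 matched members summed to 219 to 532 CPM in mutant and 118 to 365 CPM in control testes, which overlapped. Without mutant library 3 their median was 0.98 over 14 tested members, with 0 called, against -0.03 over all tested genes. Fat body, hemocyte, gut, ovarian follicle, and nurse cell and oocyte markers had medians of 0.10, 0.04, -0.03, 0.03 and -0.08, which became 0.15, -0.03, 0.06, 0.14 and -0.14 with the strand share in the model. Fbp1, Jon99Cii, Jon99Ciii, Vm26Ac, Vm32E, BicC and cup had no counts in any of the 6 libraries. None of these 8 lists had a called member with edgeR, DESeq2 or limma-voom, and 3 of their 73 tested genes had an unadjusted p under 0.05. The part of accessory gland RNA in the upward leaning lists was not tested.

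Of 314 long noncoding RNAs 10 were called (3.18%, 6 higher and 4 lower), and of 8789 protein-coding genes 63 (0.717%), a difference that was not tested. The rise of lncRNA:CR45998 (FBgn0267660, 3L 16017537 to 16021582) was among the firmest, with 302, 342 and 469 CPM in mutant and 35.6, 50.9 and 35.9 CPM in control libraries (log2 3.18, SE 0.36, edgeR adjusted p = 1.77e-07), and it passed in the 16 alternatives that fitted it. It has an opposite exon, so it was not in the fit of features without one. Of its exon bases 67.0% lie opposite lncRNA:CR43949. Antisense RNAs had 2 calls of 383 tested (0.522%, against 0.942% of all tested genes), both higher. Across these 383 the changes were positive in 121 and negative in 262 (median log2 -0.15). A called one was asRNA:CR46047 opposite CG18294 (log2 1.85, edgeR adjusted p = 0.00834). The function of these RNAs is not annotated in the files used here.

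Some called genes were neighbours. Repeats aside, 9 pairs of called genes lay within 50 kb of each other, and 5 of these pairs changed the same way and 4 in opposite directions. No count of such pairs among all tested genes is given here, so the 9 are not read as an excess. The 3 pairs that were 34.99 to 40.6 kb apart were all of opposite direction. CG31955 (2L 3711881 to 3713105) and CG2818 (2L 3713360 to 3716810) lie 0.255 kb apart on opposite strands and both fell. CG31955 had 8.89, 4.60 and 17.6 CPM in mutant and 73.5, 52.6 and 58.9 CPM in control libraries (log2 -2.65, SE 0.42, edgeR adjusted p = 1.42e-04), and CG2818 had 8.21, 12.2 and 4.93 CPM in mutant and 35.6, 31.6 and 29.9 CPM in control libraries (log2 -1.88, SE 0.42, edgeR adjusted p = 0.0125). Neither overlapped between groups, and the CG2818 call ended without control library 1 (0.0751) or mutant library 1 (0.0518). On the X, CG43115, which lies 15.4 kb from CG5937, rose with it and had 82.4, 68.0 and 31.7 CPM in mutant and 3.87, 5.26 and 7.36 CPM in control libraries (log2 3.42, SE 0.44, edgeR adjusted p = 3.58e-06). CG15406 and CG8837, 8.56 kb apart on 2L, both rose (log2 2.59 and 3.50). The CG15406 call ended without mutant library 2 (edgeR adjusted p = 0.676) or control library 2 (0.0657). That of CG8837 ended without control libraries 1 or 2 (0.279 and 0.296). On 3L Cpr73D fell beside Exn (log2 -1.97, edgeR adjusted p = 0.0084), a call that ended without control library 1 or mutant libraries 1 or 2 (up to 0.138).

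The cuticle protein pair Cpr67Fa1 and Cpr67Fa2, 1.01 kb apart on 3L, moved in opposite directions. Cpr67Fa2 rose, with 40.7, 45.7 and 81.8 CPM in mutant and 10.1, 9.36 and 8.66 CPM in control libraries (log2 2.57, SE 0.41, edgeR adjusted p = 1.42e-04). Cpr67Fa1 fell, with 7.18, 0.657 and 3.52 CPM in mutant and 23.2, 23.4 and 20.8 CPM in control libraries (log2 -2.54, SE 0.56, edgeR adjusted p = 0.0109), a call lost without mutant library 2 (0.121). The groups were apart for both genes, and their sum was 47.9, 46.3 and 85.3 CPM in mutant and 33.3, 32.8 and 29.5 CPM in control libraries. As tandem members of a family they may share reads, and how the counting split such reads was not tested.

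Testis calls were compared with the ovary libraries of the same genotypes, which came from females 0 to 1 day old and whose RNA was poly(A) selected, so tissue, age and RNA selection cannot be told apart. Of the 92 testis calls 20 were tested in ovaries and 0 were called there, in an edgeR fit that called 0 of 4683 genes (0%) with 184 at an unadjusted p under 0.05. Of these 20 genes 16 had log2 values of the same sign in both tissues (50.7% of all 4223 genes tested in both) and 5 had an unadjusted p under 0.05 in ovaries. CG31955 and CG2818 were among them, with ovary log2 changes of -3.13 and -2.09 (unadjusted p = 5.44e-04 and 0.0448, edgeR adjusted p = 0.421 and 0.999). CG31955 had 5, 46 and 18 counts in mutant ovary libraries against 130, 162 and 134 in control ovaries, and CG2818 had 2, 44 and 3 against 40, 51 and 33. These are raw counts, and mutant ovary library 2 lay within the control range for CG2818 only on that scale. That library held 1647933 gene counts, against 969812, 841428 and 772292 in control ovaries. Relative to these totals its CG2818 count lay below each control library. It also stood apart, with 32.5% of its gene counts in genes without an opposite exon against 8.90% to 17.6% in the other ovary libraries. The model of both tissues held 88 testis calls, but 32 of them had 0 counts in all 6 ovary libraries and 13 had 1 to 9 counts in all, too few for a test of the difference. Of the 43 with at least 10 ovary counts the difference passed for 1, CG6414 (3 of 10321 genes, 0.0291%, passed in all, and 550 had an unadjusted p under 0.05). For the other 42 a difference from ovaries was not shown.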

How the data were processed

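The values are raw gene counts deposited by the authors, 1 table per library. Per the submitters' processing notes, FastQC, TopHat2 2.1.1, HTSeq 0.9.1 and DESeq were used with BDGP6. The strand setting of the counting is not stated there. HTSeq summary lines, which held the records not assigned to genes, were kept out. Gene names and coordinates are those of Ensembl release 115 for BDGP6.54.

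Genes passing filterByExpr (minimum count 10) were TMM-scaled and tested with edgeR 4.0.16 (quasi-likelihood F tests with robust dispersion, p adjusted by Benjamini-Hochberg) in R 4.3.3, and checked on simulated data. DESeq2 1.42.0, limma-voom (limma 3.58.1) and other scalings, filters and models were alternatives. Shares without baz, rRNA or Su(Ste) features and the alternatives for the Y and near-Tdrd5l counts were chosen after seeing the data. SE is the log2 change over the square root of F. CPM values are given per 1000000 TMM-scaled counts, and errors are SD over 3 libraries. Genes named by rule are Tdrd5l, the 12 smallest adjusted p in each direction without opposite exons and at 5 CPM or more, called list members (or the 2 smallest p), called genes on the Y, chromosome 4 or the mitochondrial genome, and called genes within 50 kb of another. Other genes were picked after their values were seen. The 52 lists had 1571 matched members, 848 of them tested. Members and lists were chosen with earlier results of these data known. The replicate numbers did not pair the samples.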

Additional observations from a re-analysis of the deposited data

Results flagged for a closer look

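CG6414 was singled out because its effect differed between the tissues in a test of the difference itself. Mutant testis libraries held 11, 8 and 3 counts of it, against 122, 99 and 134 in control testes. Mutant ovary libraries held 79, 130 and 67, against 76, 58 and 21 in control ovaries. Its log2 change was -4.55 in testes (edgeR adjusted p = 7.95e-09) and 0.61 in ovaries (edgeR adjusted p = 0.999), and the testis change less the ovary change was -5.07 (SE 0.72, edgeR adjusted p = 0.00629). That adjusted p was 4.86e-05 without mutant ovary library 2, 0.00275 with a filter at 1 CPM and 0.0622 without mutant testis library 3, so the call of a difference ended without the latter library. The call in testes alone held without each testis library (edgeR adjusted p up to 4.08e-06). Most of the exon bases of CG6414 lie opposite asRNA:CR45481, and RNA selection and tissue cannot be told apart.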

How the results depend on the processing

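The 92 calls (31 higher, 61 lower) became 9 (5 and 4) with all 12 libraries in 1 model, 58 with library size alone (36 lower), 28 (8 and 20) among features without an opposite exon, and 177 with the strand share (88 higher), and without a filter 92 genes were called lower. Leaving out 1 library at a time gave 49 to 725 calls, 23 to 287 higher and 26 to 438 lower, with 725 without mutant library 3 and at most 111 otherwise. The cause was not tested. DESeq2 size factors, upper quartile scaling, a filter at 1 CPM in 3 libraries, DESeq2 and limma-voom gave 90, 94, 96, 102 and 92 calls. With a replicate block 79 genes were called (29 higher, 50 lower), but same-numbered libraries deviated together with r = -0.185, 0.0105 and -0.336, so the numbers do not pair the samples. Of the 92 genes 9 passed under every alternative that fitted them (16 for the 6 with an opposite exon, 17 for the others) and 23 more failed only with all 12 libraries in 1 model, and none reversed. The 1 testis call whose effect differed from ovaries became 0 without mutant testis library 3, 1 without mutant ovary library 2 and 2 with a filter at 1 CPM. Depth limits rare genes, and 4 of the 185 tested genes with a mean below 5 CPM were called.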
